A study of Mus musculus with 7 samples.

Results

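The genes described here are 60 components of Wnt and Hippo signaling, 43 of the Wnt pathway and 17 of the Hippo pathway, taken by name from a list of pathway members. The list was drawn up with earlier results of these data known, although no measured value enters the rule. Of these, 21 have at least 1 m6A peak in the table for regenerating muscle and 26 have at least 1 in the list for C2C12 myoblasts. Both tables hold 12 of the genes, 35 are in at least 1 of them and 25 are in neither. The muscle table lists 5412 peaks in 3980 gene names, and the C2C12 list 5433 peaks in 3970. The listed Wnt and Hippo genes hold 36 of the muscle peaks and 46 of the C2C12 peaks, and every peak is accounted for below.

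m6A MeRIP-Seq pulls down pieces of mRNA that carry N6-methyladenosine (m6A), and this immunoprecipitate (IP) is sequenced next to the input RNA. Muscle came from C57BL/6 mice at day 2 after cardiotoxin (CTX) was injected into the tibialis anterior, a toxin injury that makes the fibers die and regrow. The METTL3 cKO mice were Pax7CreERT2; METTL3 flox/flox and the control (CTL) mice Pax7CreERT2; METTL3 wt/wt, so both carried the Cre, and both received tamoxifen on 5 days. There was 1 IP and 1 input library of each genotype, and the number of mice behind a library is not given in the sources used here. C2C12, a mouse myoblast line, gave 2 IP libraries and 1 input library. The sample labels call both C2C12 IP libraries a knockout and the input normal, and do not say whether the cells had been differentiated, so these libraries are called C2C12 only. METTL3 is the catalytic subunit of the m6A writer, and Cre driven by Pax7 acts in muscle stem cells. The labels give muscle as the source and muscle stem cell as the cell type, so how many other cells the RNA came from is not settled by them.

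Wnt ligands are secreted lipid-bearing proteins that bind Frizzled receptors together with LRP co-receptors. In the absence of a ligand, APC, AXIN and GSK3B hold β-catenin in a complex that sends it for degradation. When a ligand binds, β-catenin enters the nucleus and acts with TCF/LEF factors, BCL9 and PYGO. In the Hippo pathway, the kinases STK3, STK4, LATS1 and LATS2 keep the coactivators YAP1 and TAZ out of the nucleus, where they would act with TEAD factors. Both pathways are known for their part in the activation, growth and differentiation of muscle stem cells after injury.

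For muscle, the authors' table gives each peak 1 set of values over all 4 libraries: its position, its annotation, a p-value, a fold enrichment of IP over input and the positions of the GGAC sites in it. GGAC is the core of the sequence in which m6A is usually written. Every listed peak had also passed a limit on the FDR of the authors' own test between the genotypes, which is their comparison and is not used here. A gene that is not in the muscle table may thus have m6A that did not pass that test. Without a value for each genotype, a difference between cKO and CTL could not be measured for any gene below, and the fold enrichments have no replicate error. The C2C12 list gives position, annotation and distance to the transcription start site (TSS), and no enrichment. Neither table holds counts, so the depth is unknown. Of the marker genes listed for muscle stem cells and myoblasts, 4 of 7 have a muscle peak (Pax7, Myod1, Myog and Itga7, exact interval 18.4 to 90.1%). For muscle fibers it was 1 of 6 (Ttn, 0.421 to 64.1%) and for macrophages 2 of 6 (Itgam and Mrc1, 4.33 to 77.7%). For fibro-adipogenic cells it was 2 of 4 (Pdgfra and Col1a1, 6.76 to 93.2%) and for endothelial cells 1 of 3 (Cdh5, 0.840 to 90.6%). Over all protein-coding genes, 16.9% have a muscle peak. The intervals overlap widely, so these counts do not set the cell types apart. A listed peak shows captured RNA and not how much of it there was, so the markers do not measure the make-up of the tissue.

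The roles hold 1 to 9 genes each, so the counts by role are too small to set the roles apart. The muscle table held 35.0% of the 60 genes (exact 95% confidence interval 23.1 to 48.4, counting error only), against 16.9% of all 21900 protein-coding genes. For the C2C12 list the share was 43.3% (30.6 to 56.8), against 17.6% of all protein-coding genes, and for both tables together 20.0% (10.8 to 32.3), against 7.32%. Because the genes were chosen with earlier results of these data known, the shares describe the list and carry no test. The protein-coding genes beside them include those not expressed in these samples, and were not matched for expression or transcript length. By pathway, 13 of the 43 Wnt genes and 8 of the 17 Hippo genes were in the muscle table, and 17 and 9 were in the C2C12 list.

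**Figure D1:**
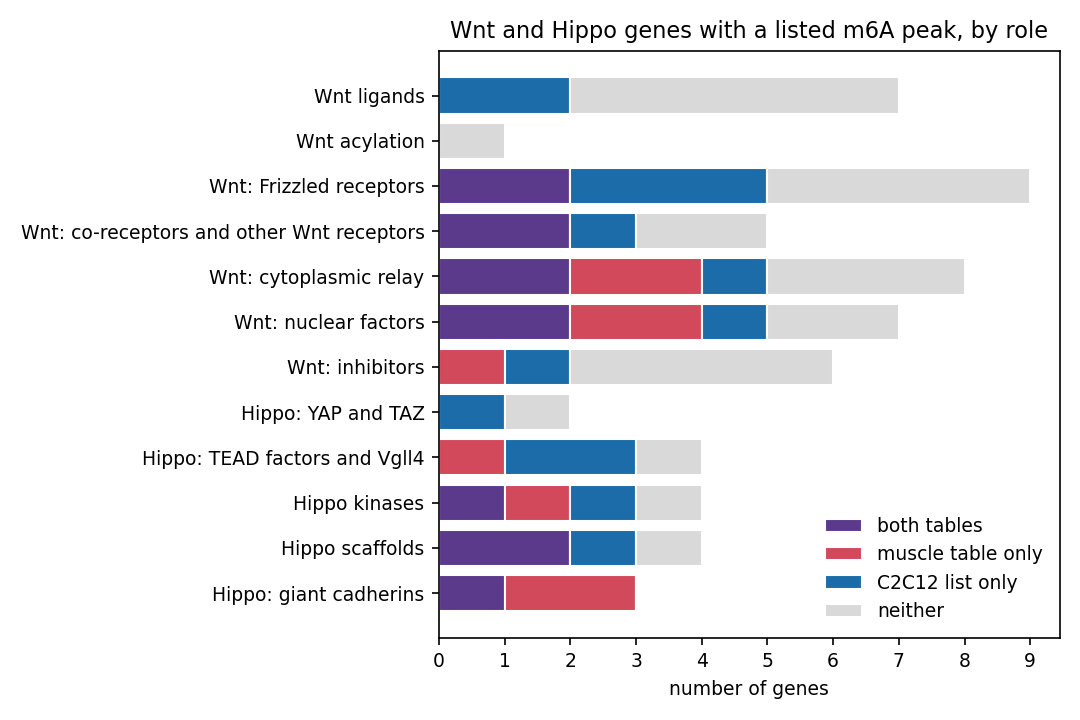
Number of Wnt and Hippo genes with a listed m6A peak in both tables, in the muscle table only, in the C2C12 list only, or in neither, as bars for each role. The 3 giant cadherins all have a muscle peak. The 7 Wnt ligands have none, and the ligands Wnt4 and Wnt10a are listed in C2C12 only. Over all protein-coding genes, 16.9% have a muscle peak, and counts this small do not set the roles apart.

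None of the 7 ligands examined had a muscle peak. In C2C12, Wnt4 had 1 peak of 214 bp in coding sequence (CDS), and Wnt10a had 1 in the CDS and 1 in the 3′UTR, together 482 bp. No peak was listed in either table for Wnt2, Wnt5a, Wnt5b, Wnt7a or Wnt9a, nor for Porcn, the enzyme that attaches the lipid to Wnt proteins. Among the 6 inhibitors, Dkk2, a secreted antagonist that binds the LRP co-receptors, had a muscle peak, and Znrf3, a ubiquitin ligase that removes Frizzled receptors from the surface, had a C2C12 peak. The Dkk2 peak is a 3′UTR peak of 330 bp with a fold enrichment of 11.2 and no GGAC site. The Znrf3 peak is a CDS peak of 545 bp. Rnf43, Sfrp1, Sfrp2 and Dkk3 were in neither table.

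In the muscle table, the strongest peak of the 21 listed genes had a median fold enrichment of 44.4, with quartiles of 15.3 and 177, against 19.3, with quartiles of 6.88 and 76.0, over all 3975 genes. A fold enrichment of 100 or higher was found for 9 of the 21 genes (42.9%), against 20.8% of all genes. These 9 genes are Fat1, Ror2, Bcl9, Fzd1, Fzd7, Fat4, Dchs1, Apc and Gsk3b. They are 3 giant cadherins, 3 cell surface receptors, 2 members of the β-catenin destruction complex and 1 nuclear cofactor. The lowest were Stk3 (2.48), Tead1 (5.84), Lats1 (6.15) and Dkk2 (11.2), of which the first 3 are Hippo kinases or a Hippo transcription factor. The median over the 13 Wnt genes was 44.4 and over the 8 Hippo genes 31.6. The Hippo genes covered the wider range, from 2.48 to 1560, against 11.2 to 427 for the Wnt genes. At least 2 peaks were listed for 10 of the 21 genes, a share of 47.6% against 25.1% of all genes in the table.

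**Figure D2:**
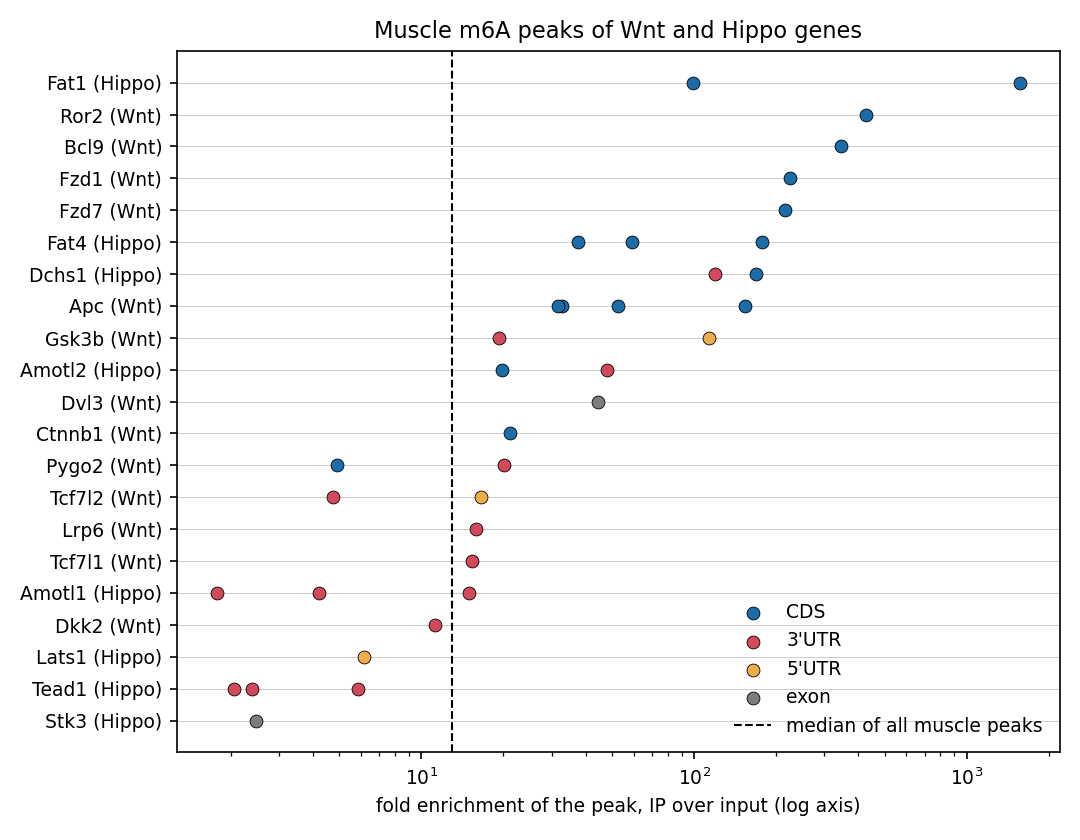
Fold enrichment of IP over input (log axis) of each of the 36 muscle peaks, by gene and colored by the authors' annotation, with the median of all muscle peaks, 12.9, as a dashed line. The Fat1 peak at 1560 stands apart from the next gene, Ror2 at 427, and the peaks of Tead1, Stk3, Lats1 and Dkk2 lie below the line.

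The strongest peak belonged to a giant cadherin, Fat1, while the other giant cadherins lay below Ror2, Bcl9, Fzd1 and Fzd7. FAT1, FAT4 and DCHS1 are very large cadherins, of which FAT4 and DCHS1 bind each other between cells and act upstream of the Hippo kinases. The last muscle peak of Fat1, on chromosome 8 from 45050478 to 45051897 (GRCm38), lies in the CDS in 2 exon blocks and was enriched 1560-fold, rank 3 among all 5412 peaks. An upstream CDS peak of Fat1, of 2010 bp, had a fold enrichment of 98.7. Fat4 had 3 CDS peaks, at 177 near the start of the gene, at 37.5 in the middle and at 59.4 farther on. Dchs1 had a CDS peak of 2397 bp at 169, followed closely by a 3′UTR peak of 540 bp at 119. Together these genes held 7 of the 36 muscle peaks and 48 of the 154 GGAC sites, and each of the 7 peaks had at least 4 sites. In C2C12, Fat1 had 4 CDS peaks covering 1636 bp, rank 69 of 3969 genes by covered length, while Fat4 and Dchs1 were not listed.

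Of the 9 Frizzled receptors, Fzd1 and Fzd7 had a muscle peak. FZD7 is the receptor through which WNT7A is known to act on muscle stem cells. The Fzd1 peak (chromosome 5, 4755278 to 4758035) is 2758 bp long, was enriched 225-fold and holds 17 GGAC sites. The Fzd7 peak (chromosome 1, 59482424 to 59485137) is 2714 bp long, was enriched 215-fold and holds 12. Both are annotated as CDS, with 1 annotation for each whole peak. By distance from the TSS, C2C12 peaks of Fzd7 annotated to the 5′UTR and the 3′UTR overlap its muscle peak. The annotation thus need not hold for every base or GGAC site of these long peaks. The Fzd1 and Fzd7 muscle peaks cover 63.0% and 56.4% of the gene spans of 4378 and 4809 bp. Their fold enrichments are close, at ranks 380 and 404. In C2C12, Fzd1 had 5 peaks covering 2017 bp and Fzd7 had 3 covering 1698 bp, ranks 36 and 59. Fzd2, Fzd6 and Fzd8 had 1 C2C12 peak each, the one of Fzd8 upstream of the gene and centered at -214 bp from its TSS. No peak was listed for Fzd3, Fzd4, Fzd5 or Fzd10.

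Among the other receptors, Ror2, a receptor tyrosine kinase for WNT5A that acts without β-catenin, had the strongest peak. It is a CDS peak of 1942 bp (chromosome 13, 53109611 to 53111552), enriched 427-fold at rank 155, with 11 GGAC sites. Lrp6, a co-receptor of the β-catenin branch, had a 3′UTR peak of 241 bp with a fold enrichment of 15.9 and 1 site. In C2C12, Ror2, Lrp6 and Lrp5 each had 1 CDS peak. Ror1 and Ryk were in neither table.

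In the cytoplasmic relay, Apc, the scaffold of the destruction complex, had 4 CDS peaks covering 5305 bp, the longest covered length of the 21 genes. Their fold enrichments were 32.8, 31.6, 52.5 and 153 in the order of the transcript, so the highest was the one farthest 3′. Gsk3b, the kinase that marks β-catenin for degradation, had a 5′UTR peak of 1230 bp at 113 and a 3′UTR peak of 391 bp at 19.3. The 5′UTR peak held 5 GGAC sites and the 3′UTR peak 1. Ctnnb1, which encodes β-catenin, had a CDS peak of 448 bp at 21.2, with 4 sites. Dvl3, a Dishevelled adaptor that links Frizzled to the destruction complex, had a peak of 569 bp at 44.4 with 5 sites, annotated only as exon. In C2C12, Axin1 had 2 CDS peaks, Ctnnb1 had a 5′UTR and a CDS peak, and Apc had 1 CDS peak. Dvl1, Dvl2 and Axin2 were in neither table.

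Among the nuclear factors of the Wnt pathway, Bcl9, which bridges β-catenin and PYGO, had a CDS peak of 1648 bp (chromosome 3, 97204291 to 97205938) that was enriched 345-fold, at rank 214, and holds 12 GGAC sites. In C2C12, Bcl9 had 1 CDS peak of 204 bp. Its relative Bcl9l was not in the muscle table and had 3 CDS peaks covering 2485 bp in C2C12, rank 21, the highest of the genes described here. The TCF factors were weaker. Tcf7l1 had a 3′UTR peak at 15.3, and Tcf7l2 had a 5′UTR peak at 16.5 and a 3′UTR peak at 4.75, and neither was listed in C2C12. Tcf7 and Lef1 were in neither table. Pygo2, which reads methylated histone H3 and binds BCL9, had a 3′UTR peak at 20.1 and a CDS peak at 4.90 in muscle, and 1 3′UTR peak of 281 bp in C2C12.

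The GGAC sites of the Pygo2 CDS peak are shown because they are the sites of these genes whose sequence could be read, from the RefSeq promoter windows of GRCm38.p6 on the plus strand. The windows run from 250 bases before a start site to 50 after it, and 41 of the 60 genes have one. Each line gives 27 bases, 5′ to 3′, as DNA, with the GGAC of the listed site in capitals.
Pygo2 site at chr3:89430572-89430598: gtgcggcccgaGGACgcctccatcccc
Pygo2 site at chr3:89430642-89430668: ccgcccccaccGGACaagctggaggga
Pygo2 site at chr3:89430757-89430783: gttgaggcccgGGACcctggaacctcg
The sites lie 45, 115 and 230 bp into the peak. The GGAC of the last 2 is followed by A or C, as in the wider DRACH consensus of m6A (H is A, C or T), and that of the site nearest the start of the peak is followed by G. GGAC is common, and 65.6% of 32817 promoter windows of 300 bp hold it at least once on the strand of the gene.

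On the Hippo side, most peaks outside the cadherins lay in the 3′UTR, and apart from those of Amotl2 none was enriched more than 15.0-fold. Tead1, the DNA-binding partner of YAP1, had 3 3′UTR peaks of 150 to 211 bp, with fold enrichments of 5.84, 2.06 and 2.40. The last of these holds 3 GGAC sites in 151 bp, which at 19.9 sites per 1000 bp is the highest density of the 36 peaks, and the others hold none. It also has the highest peak p-value of the 36, 0.001. Amotl1, an angiomotin that binds YAP1 in the cytoplasm, had 3 3′UTR peaks at 1.78, 4.22 and 15.0, none with a GGAC site. Its relative Amotl2 had a CDS peak at 19.7 and a 3′UTR peak at 48.1, with 5 and 7 sites. The kinases were among the lowest, with a 5′UTR peak of Lats1 at 6.15 and an exon peak of Stk3 at 2.48. Yap1 itself was not in the muscle table and had 1 CDS and 1 3′UTR peak in C2C12, together 677 bp. In C2C12, Lats2 and Amotl2 had 3 peaks each, Amotl1 had 1 in the CDS and 1 in the 3′UTR, and Lats1, Tead3, Tead4 and Wwc2 had 1 each. Wwtr1, which encodes TAZ, Vgll4, Stk4 and Nf2 were in neither table.

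By annotation, 17 of the 36 muscle peaks (47.2%, 30.4 to 64.5) were in the CDS, against 31.9% of all muscle peaks. The 3′UTR held 14 (38.9%, 23.1 to 56.5), against 48.0% of all. The remaining peaks were 3 in the 5′UTR and 2 annotated as exon. Both intervals contain the share over all peaks, and they take no account of peaks that share a gene. Each peak has 1 annotation, so a long peak counted in the CDS may also run into a UTR. The CDS and 3′UTR peaks differed in strength among these genes, with a median fold enrichment of 98.7 in the CDS and 13.1 in the 3′UTR. Over all muscle peaks these medians were 26.6 and 9.94. The median lengths also differed, at 1349 bp in the CDS and 226 bp in the 3′UTR for these genes. Over all muscle peaks they were 600 and 301 bp. Whether length accounts for the difference in strength was not tested. In C2C12, 32 of the 46 peaks (69.6%, 54.2 to 82.3) were in the CDS, against 52.6% of all C2C12 peaks. None was in an intron (0%, 0 to 7.71), against 12.4% of all C2C12 peaks. More than 1 peak was listed for 11 of the 26 C2C12 genes (42.3%, against 25.8% of all), and 3 or more for Fzd1, Fat1, Fzd7, Bcl9l, Lats2 and Amotl2 (23.1%, against 7.18%).

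Peak length went with fold enrichment. Of the 36 peaks, 13 (36.1%, 20.8 to 53.8) had an exonic length of 1000 bp or more, against 14.7% of all muscle peaks. Fold enrichment and length had a Spearman correlation of 0.910 over the 36 peaks and of 0.765 over all 5412, given as a description, since all peaks come from the same 4 libraries and several share a gene. Within classes of length, the genes stood close to the table as a whole. For peaks of 1000 bp or longer, the median fold enrichment was 153 for these genes and 134 for all. For peaks of at least 250 and under 1000 bp it was 20.1 and 18.7, and for shorter peaks 4.48 and 4.43.

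**Figure D3:**
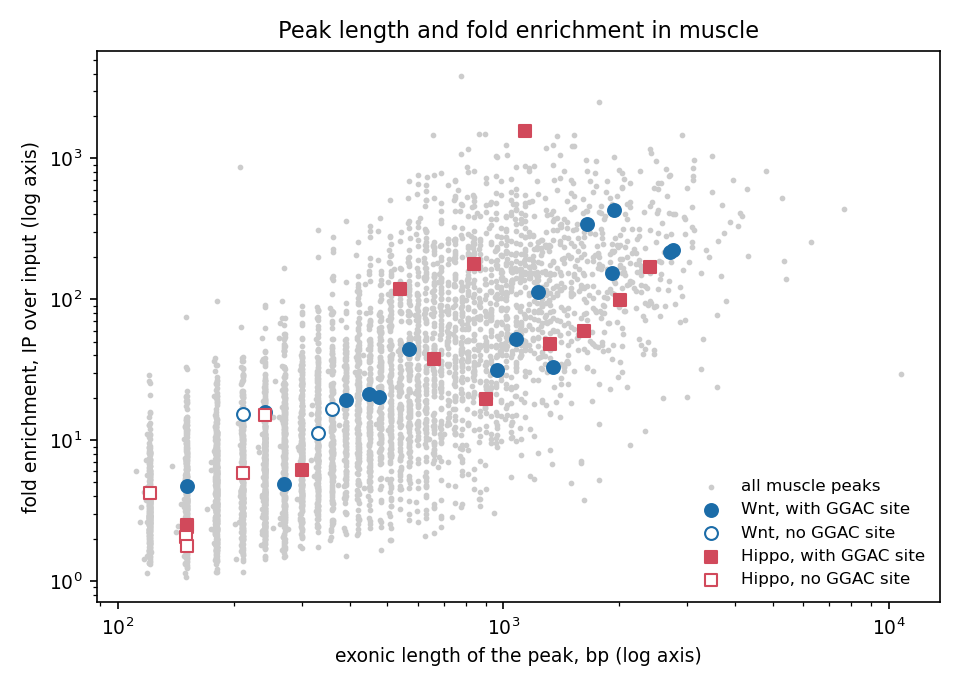
Fold enrichment against exonic length of each muscle peak (both axes log), with all 5412 peaks in gray and the Wnt and Hippo peaks as circles and squares, open where no GGAC site is listed. The 8 open symbols are short peaks, of at most 360 bp and a fold enrichment of at most 16.5, and the Fat1 peak at 1560 lies above every other Wnt or Hippo peak.

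A GGAC site was present in 28 of the 36 (77.8%, 60.8 to 89.9), against 70.6% of all muscle peaks. The density was 4.82 sites per 1000 bp, against 4.63 over all muscle peaks. All 17 CDS peaks held a site (84.5% over all CDS peaks), as did 7 of the 14 3′UTR peaks (62.0% over all 3′UTR peaks). The 8 peaks without a site belong to Amotl1, Tead1, Tcf7l1, Tcf7l2 and Dkk2, and 7 of them are in the 3′UTR. This count also follows length. Among peaks under 250 bp, 4 of 10 held a site, against 42.0% of all peaks of that length. Among those of at least 250 and under 1000 bp it was 11 of 13 (84.6%, against 80.6%), and among longer ones 13 of 13 (100%, against 98.6%).

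The positions in the tables could not be set side by side. The submitters' processing notes name mm10 (GRCm38) for all samples, and all 36 muscle peaks of these genes lie inside the GRCm38 span of their gene, but 10 of their 46 C2C12 peaks (21.7%) do. Over all peaks with a matched gene the shares were 95.6% and 9.30%, so the stated build does not hold for the C2C12 positions, and which build they are on was not determined. The peaks of the shared genes were therefore set side by side by their distance from the TSS. For muscle this is the start of the RefSeq gene span, and for C2C12 the annotated start in the list. These distances run along the genome, introns included. A difference between the builds could shift them, which was not tested. Of the 12 genes, 10 had a peak in the same annotated part in both tables, the exceptions being Lrp6 and Lats1. Peaks of 7 genes overlapped in distance, namely Fzd1, Fzd7, Ror2, Apc, Ctnnb1, Amotl2 and Fat1. Together, 12 of the 25 C2C12 peaks of the 12 genes overlapped a muscle peak.

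**Figure D4:**
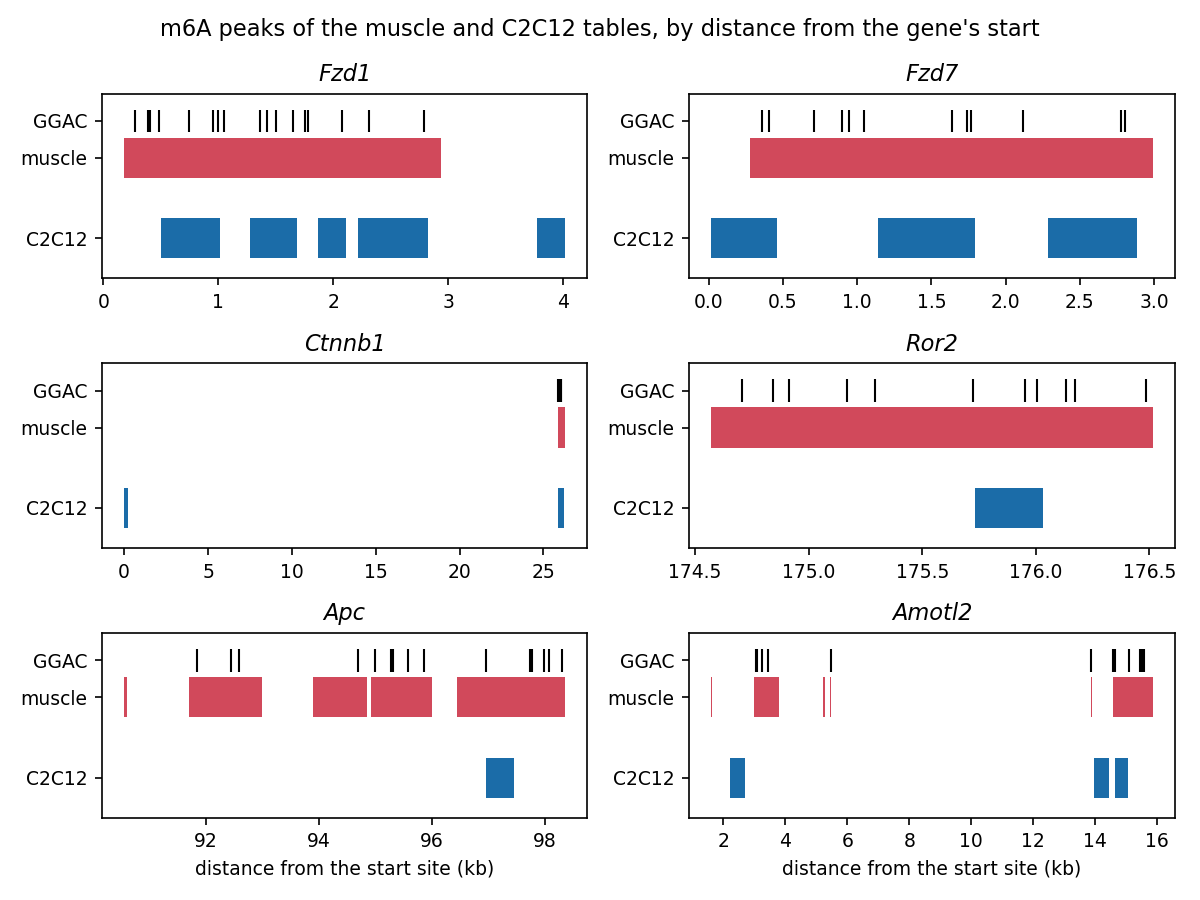
Exon blocks of the muscle peaks (red) and C2C12 peaks (blue) of 6 genes by distance from the start of the gene in kb, with the GGAC sites listed for muscle as ticks. The muscle peaks of Fzd1 and Fzd7 are single long blocks over which most of the C2C12 peaks lie, and the only C2C12 peaks of Apc and Ror2 and the CDS peak of Ctnnb1 lie inside a muscle peak.

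For Fzd1, the muscle peak runs from 181 to 2938 bp from the TSS and 4 of the 5 C2C12 peaks lie inside it, between 502 and 2821 bp. The remaining C2C12 peak is in the 3′UTR, from 3769 to 4015 bp, beyond the end of the muscle peak. For Fzd7, the muscle peak runs from 277 to 2990 bp, and the C2C12 peaks run from 17 to 459, from 1138 to 1794 and from 2284 to 2882 bp. Of the muscle GGAC sites, 10 of 17 in Fzd1 and 7 of 12 in Fzd7 fall in a C2C12 peak, and 64.2% and 53.0% of the bases of the muscle peaks do. From the start of the gene span, the Ctnnb1 CDS peaks are nearly the same, from 25854 to 26301 bp in muscle and from 25885 to 26227 bp in C2C12. Counted from there, the C2C12 peak holds all 4 sites. The second C2C12 peak of Ctnnb1 lies at the TSS, where no muscle peak is listed. The Apc peak of C2C12, from 96949 to 97445 bp, lies inside the muscle peak with the highest fold enrichment, and that of Ror2, from 175732 to 176032 bp, inside the only one. Over the 7 genes, 26.9% of the muscle peak bases were also in a C2C12 peak. The density of sites was 5.22 per 1000 bp in these and 4.21 in the rest, and 26 of the 83 sites lay in them. By gene, the density was higher in the shared bases for Fzd7, Ror2, Ctnnb1 and Fat1, and lower for Fzd1, Apc and Amotl2. The widest gap, 11.7 against 0 for Ctnnb1, holds only from the start of the gene span.

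The start site that is used matters for some genes. For Ctnnb1, the overlap was 343 bp from the start of the gene span and 239 bp from a RefSeq start site 178 bp downstream. Counted from the latter, the 4 muscle sites lie before the C2C12 peak and not in it. For Amotl2, 1 of the 3 C2C12 peaks overlapped from the start of the gene span and all 3 from a RefSeq start site 713 bp downstream. For Fat1, the C2C12 peak that overlapped from the start of the span met the upstream muscle peak at 98.7, whereas from a start site 17108 bp downstream the overlap was with the peak at 1560. Pygo2 overlapped only from start sites 626 and 723 bp downstream. No overlap was found from any RefSeq start site for Lrp6, Bcl9, Lats1 or Amotl1. The Lrp6 peaks lie far apart, from 59173 to 59381 bp in the CDS in C2C12 and from 119777 to 120017 bp in the 3′UTR in muscle. The Lats1 peaks are likewise separate, in the 5′UTR in muscle and in the CDS in C2C12.

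Further genes of both pathways were looked up from lists. Of 65 other Wnt pathway genes, 11 were in the muscle table, a share of 16.9% (8.76 to 28.3) that equals the 16.9% of all protein-coding genes. The C2C12 list held 20 of them (30.8%, 19.9 to 43.4, against 17.6% of all), and 8 were in both. The strongest muscle peaks were those of Crebbp (604) and Ep300 (308), acetyltransferases that work with β-catenin and many other factors, and of Ctnnbip1 (82.0), which keeps β-catenin from TCF factors, and Amer1 (45.9), which binds APC at the membrane. The Wnt ligands among these 65 genes had no muscle peak, and 1 of them, Wnt6, had a C2C12 peak. Of 35 other Hippo pathway genes, 18 were in the muscle table (51.4%, 34.0 to 68.6, against 16.9% of all). The C2C12 list held 11 of them (31.4%, 16.9 to 49.3, against 17.6% of all), and 8 were in both. Over all protein-coding genes, 7.32% were in both. A high share in the muscle table was thus not particular to the Hippo genes described above, of which it held 8 of 17. The strongest of the 35 were Limd1 (121), which binds LATS kinases, Rassf4 (88.1), Llgl1 (84.0), a cell polarity protein, and Mpp5 (63.5), a polarity scaffold. The median fold enrichment of the strongest peaks was 9.66 for the further Wnt genes, against 44.4 for the Wnt genes described above. For the further Hippo genes it was 12, against 31.6 for the Hippo genes described above, and over all genes in the table it was 19.3.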

How the data were processed

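m6A MeRIP-Seq libraries of day 2 muscle (4) and of C2C12 (3) were grouped by their labels. The submitters' processing notes name TopHat, MACS2 and mm10, without their roles. For muscle, the authors deposited for each peak a ratio (the fold enrichment, IP over input) and a p-value, listed as 0 for 929 peaks. The column names are those that exomePeak writes. Columns of the authors' differential test between the genotypes (log2 fold, p and FDR) were not used, nor were log10 columns damaged by a spreadsheet. Columns of single samples left out numbered 0. The authors' C2C12 list has no values per IP library.

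The genes and lists were chosen with earlier results of these data known. Names were matched to RefSeq (GRCm38.p6) by symbol or by an older symbol naming a single gene; 3808 of 3980 muscle names and 3967 of 3970 C2C12 names matched, and all 60 genes were known. Each muscle gene was represented by its strongest peak, and lengths are sums of exon blocks. C2C12 distances run to the peak center, since all 1021 transcripts with 2 or more peaks gave 1 start site. Listed GGAC positions mark the A in 90 of 104 sites that a promoter window holds. The genes given in full were the 12 highest and 4 lowest in muscle, those with 3 or more peaks in a table and those in the same part in both tables, with up to 4 from each further list. No test was made, since there are no replicates with values of their own. Intervals are exact (Clopper-Pearson) 95% intervals. Overlap in distance means at least 1 bp, in exon blocks. The functions were tested on planted data. Python 3.11.15, pandas 2.3.3, numpy 2.4.6, scipy 1.17.1 and matplotlib 3.10.9 were used.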

Additional observations from a re-analysis of the deposited data

How the results depend on the processing

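Of 23 alternatives to 8 results, 21 stayed within 1.5 times of the value given. The number of genes in both tables, 12, became 7 when peaks had to overlap in distance from the start of the gene span, by 1 bp or by 50% of the C2C12 peak, and 8 from any RefSeq start site. These settings were added after seeing the data, and they can only lower the number. With weaker muscle peaks left out (below the median of the table), 17 of the 21 genes stayed in the muscle table and the share of peaks in the 3′UTR went from 38.9% to 26.9%. Averaging the peaks of a gene took the median fold enrichment from 44.4 to 33.9. DRACH in place of GGAC, overlap by genome position and leaving out each C2C12 IP library were not run, because no genome was used, the positions are on different builds and the list gives no values per library. No paired analysis was possible because each genotype has 1 library of each kind and values of single libraries are absent from the tables used. Depth is unknown, so no precision can be given for a fold enrichment.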

Other observations

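Genes known to be switched on by β-catenin or by YAP1 were looked up as a list of 20, of which 8 are among the genes described above (Axin2, Lef1, Tcf7, Rnf43, Znrf3, Amotl1, Amotl2 and Lats2). Of the other 12, 3 were in the muscle table and 5 in the C2C12 list, and Ccn1 was in both. In muscle, Ccn1, which encodes the matrix protein CYR61, had a 3′UTR peak of 654 bp with a fold enrichment of 34.7. Ccn2, which encodes CTGF, had a 3′UTR peak of 478 bp at 14.1, and the weakest was a 3′UTR peak of 240 bp in Crim1. In C2C12, Ccn1 and Ankrd1 had 3 peaks each, Myc had 2, and Ccnd1 and Birc5 had 1 each.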
